A study of Mus musculus with 12 samples.

Results

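The data describe how the small molecule 4EGI-1 changed the RNA bound to polysomes beyond the change it made in the RNA of the cytoplasm, in 1 mouse clone of T-ALL, acute lymphoblastic leukaemia of T cells. For each gene the quantity is (polysomal 4EGI-1 minus polysomal untreated) minus (cytoplasmic 4EGI-1 minus cytoplasmic untreated) on the log2 scale, called the loading change here. It was formed from all 12 arrays of the series, 3 in each of 4 groups, for the 13180 genes that passed a filter on dim probe sets. All 12 arrays hold RNA of that clone, on a C57BL6 background. The treated cells received 100 µM 4EGI-1 for 2 h, and the controls are named untreated in the labels but DMSO in the protocols. Polysomal RNA was pooled from the polysome fractions of a sucrose gradient. The other preparation is called cytoplasmic in the labels and Total in the sample titles, and the design text has both preparations of a replicate taken from the same treated cells. The cells are 1 clone, so the 3 arrays of a group are replicates of it and not different tumours. The labels do not say whether each replicate was a separate culture. They also do not tie a replicate number in one group to the same number in another.

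Most eukaryotic mRNAs are translated after eIF4E binds the cap at their 5′ end and recruits the scaffold eIF4G, together with the helicase eIF4A. 4EGI-1 was made to disrupt the contact of eIF4E with eIF4G. An mRNA that carries several ribosomes sediments with polysomes, so a shift of an mRNA into or out of the polysomal pool at a given cytoplasmic level is read as a change in its ribosome loading. The arrays were normalised to each other, so each value is relative to the other mRNAs in the same preparation, and a fall or rise of all translation together is not visible. In bulk RNA, fewer cells with an mRNA and less of it per cell cannot be told apart.

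The arrays had medians between 6.40 and 6.56 (log2), and no pair of arrays was identical. Cytoplasmic arrays varied more than polysomal ones. The median standard deviation of a gene was 0.133 and 0.121 in the untreated and treated cytoplasmic groups, against 0.0745 and 0.0761 in the polysomal groups. Of 33 T-lineage genes listed, 30 were measured and all 30 of these passed the filter on dim signal, while 4 of 9 measured B cell markers and 5 of 12 measured myeloid markers did. None of the T-lineage, B cell, myeloid or stromal markers passed the test of the loading change with limma, although 3 T-lineage genes and 1 stromal gene were higher and 1 myeloid gene was lower at an unadjusted p under 0.05. At that unadjusted threshold 887 of the 13180 genes tested (6.73%) were higher and 905 (6.87%) were lower, and the unadjusted counts of lists are to be read against these shares. The part of such markers in the results was not tested.

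The effect of 4EGI-1 differed between the fractions for 385 genes (limma, Benjamini-Hochberg adjusted p under 0.05). The loading change was higher for 305 genes, which is 2.31% of the genes tested, and lower for 80 genes, which is 0.607%. The fit gives each gene 1 spread for both fractions, and on simulated data whose fractions differed in spread it made more false calls than its threshold allows, so these adjusted p-values may be too small. Its median over all genes was -0.01. The genes with a higher loading change had a median of 0.68 and reached 1.67, and 39 of them exceeded 1, a doubling. The genes with a lower one had a median of -0.57. Leaving out 1 array at a time gave between 179 and 411 higher genes and between 19 and 259 lower genes. The higher count fell to 179 without polysomal untreated replicate 1, to 194 without polysomal untreated replicate 2, and to 180 and 179 without polysomal 4EGI-1 replicates 1 and 3. The lower count was between 19 and 32 without cytoplasmic untreated replicate 1, cytoplasmic 4EGI-1 replicate 1, any of the polysomal untreated arrays, or polysomal 4EGI-1 replicates 1 and 3, and 40 without polysomal 4EGI-1 replicate 2. It rose to 259 without cytoplasmic untreated replicate 2 and to 211 without cytoplasmic 4EGI-1 replicate 3.

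In polysomal RNA 1717 genes (13% of those tested) rose and 1599 (12.1%) fell with 4EGI-1, and in cytoplasmic RNA 1325 (10.1%) rose and 1027 (7.79%) fell. Of the 305 genes with a higher loading change, 246 rose in polysomal RNA and did not pass in cytoplasmic RNA. A further 22 rose in both fractions, 16 rose in polysomal RNA and fell in cytoplasmic RNA, 20 fell in cytoplasmic RNA alone and 1 fell in both. Of the 80 with a lower loading change, 54 fell in polysomal RNA alone, 16 rose in cytoplasmic RNA alone, 4 rose in both, 2 fell in both, and 4 fell in polysomal while rising in cytoplasmic RNA. The polysomal and cytoplasmic changes are the terms of the loading change, so these counts describe it and are no separate evidence.

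**Figure D1:**
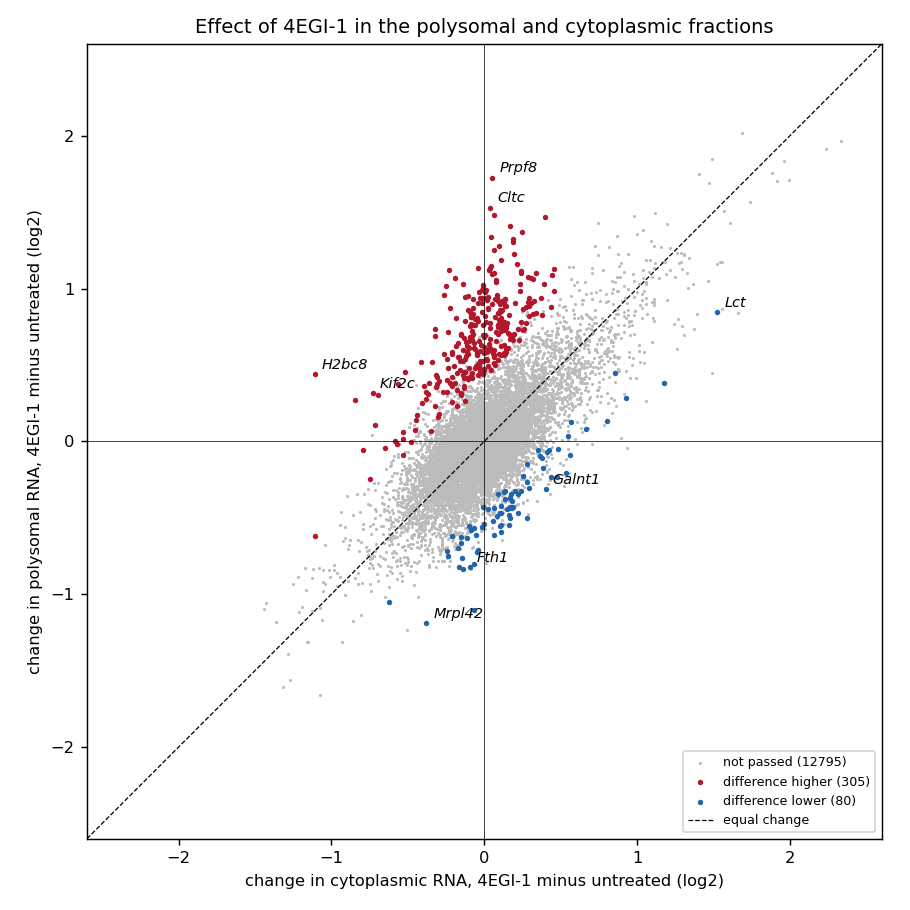
Change with 4EGI-1 in cytoplasmic RNA (horizontal axis, log2) against the change in polysomal RNA (vertical axis, log2) for the 13180 genes tested, each point the difference of group means over 3 arrays. The 305 genes with a higher loading change lie above the dashed line of equal change, 246 of them without a cytoplasmic change that passed, and the 80 with a lower one lie below it.

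Genes with a higher loading change mostly had less signal in polysomal than in cytoplasmic RNA of untreated cells. Their polysomal minus cytoplasmic value had a median of -0.68 in untreated cells, was below 0 for 303 of 305, and had a median of -0.02 after 4EGI-1. The genes with a lower loading change ran the other way, with a median of 0.56 in untreated cells, where 9 of 80 were below 0, and 0.01 after 4EGI-1. Over all genes tested the medians were -0.02 and -0.01. The value also narrowed over all genes tested: it exceeded 1 in absolute size for 178 genes in untreated cells and for 45 after 4EGI-1. The untreated arrays enter both the starting value and the loading change, so this relation was not tested and is given as a description.

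The contact that 4EGI-1 was made to disrupt forms at the 5′ end of the mRNA, so the 5′ ends of genes from both sides of the ranking are shown. Each line runs from 20 bases before to 30 bases after a transcription start annotated by RefSeq, with the first 5 transcribed bases in capitals, build GRCm38.p6. The first 4 genes had a higher loading change and the last 4 a lower one.
Prpf8: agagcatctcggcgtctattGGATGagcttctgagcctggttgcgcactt
Cltc: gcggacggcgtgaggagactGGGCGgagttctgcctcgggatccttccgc
Snrnp200: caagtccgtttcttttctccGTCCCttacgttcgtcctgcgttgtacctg
Dock2: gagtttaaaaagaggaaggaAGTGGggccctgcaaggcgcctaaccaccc
Mrpl42: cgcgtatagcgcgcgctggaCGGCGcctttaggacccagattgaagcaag
Slirp: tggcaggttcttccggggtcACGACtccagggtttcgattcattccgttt
Atp5k: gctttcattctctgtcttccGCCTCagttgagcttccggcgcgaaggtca
Ccni: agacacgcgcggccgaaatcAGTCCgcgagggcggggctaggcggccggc
The windows lie at chr11:75486757-75486806 (plus strand), chr11:86757538-86757587 (minus strand), chr2:127208366-127208415 (plus strand), chr11:34783876-34783925 (minus strand), chr10:95501920-95501969 (minus strand), chr12:87443876-87443925 (plus strand), chr5:108434370-108434419 (minus strand) and chr5:93206466-93206515 (minus strand), in this order. None of these 8 begins with a C followed by at least 4 pyrimidines, the 5′ terminal oligopyrimidine (TOP) pattern of mRNAs that mTORC1 controls. The pattern stood at an annotated start of 2 of 253 genes with a higher loading change (0.79%), of 0 of 68 with a lower one and of 305 of 10463 genes tested (2.92%), and at 10 of 44 cytosolic ribosomal protein genes (22.7%), among those that have an entry. It stood at 2.51% of all 32851 starts in the table. An ATG was searched on the transcribed strand in the first 50 bases. It lay there for 33.2% of genes with a higher loading change, 48.5% with a lower one and 37.7% of all genes tested. Of all starts 44.3% held one there. The sequence AAGATGGCG, a translation initiator of short 5′ leaders searched on the transcribed strand and itself holding an ATG, lay there for 7 of 253, 4 of 68 and 186 of 10463 genes (2.77%, 5.88% and 1.78%), and in 0.636% of all starts. The median GC content of the first 50 bases was 64%, 62% and 64%. These shares are descriptions of annotated starts, which need not be the starts used in these cells. A gene counted if any of its annotated starts held the pattern or sequence. The shares of all starts count each start, also of genes not tested, so they are not like for like with the shares of genes.

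Prpf8, the central scaffold of the spliceosome, had the largest loading change. For Prpf8 the untreated arrays read 11.73, 11.49 and 11.73 (log2) in cytoplasmic and 9.70, 9.72 and 9.41 in polysomal RNA, and the treated arrays 11.62, 11.63 and 11.86 and 11.38, 11.20 and 11.42. The 3 untreated polysomal arrays were well below the other 9, and the treated polysomal arrays did not overlap them. The loading change was 1.67 ± 0.15 (SE) (3.19-fold, limma adjusted p = 5.12e-05), made up of 1.72 in polysomal and 0.05 in cytoplasmic RNA. Snrnp200, the helicase that unwinds U4 from U6 and works beside the Prpf8 protein, had the same pattern. The 3 cytoplasmic arrays of Snrnp200 read 10.69, 10.52 and 10.55 (log2) untreated and 10.78, 10.66 and 10.83 with 4EGI-1, and the polysomal arrays 8.63, 8.77 and 8.67 untreated and 10.14, 10.07 and 10.08 with 4EGI-1. Its loading change was 1.23 ± 0.11 (SE) (limma adjusted p = 5.12e-05).

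Cltc, the clathrin heavy chain that coats endocytic vesicles, rose from the low polysomal level of untreated cells almost to its cytoplasmic level. For Cltc the untreated arrays read 11.94, 11.95 and 11.73 (log2) in cytoplasmic and 10.08, 10.30 and 10.25 in polysomal RNA, and the treated arrays 11.96, 11.91 and 11.86 and 11.74, 11.72 and 11.76. The loading change was 1.49 ± 0.12 (SE) (2.81-fold, limma adjusted p = 3.44e-05). Dock2, an exchange factor for Rac that lymphocytes need to migrate, behaved alike. The 3 cytoplasmic arrays of Dock2 read 10.80, 10.59 and 10.83 (log2) untreated and 10.75, 10.67 and 10.93 with 4EGI-1, and the polysomal arrays 9.14, 9.21 and 9.27 untreated and 10.57, 10.50 and 10.56 with 4EGI-1. Its loading change was 1.29 ± 0.12 (SE) (limma adjusted p = 6.55e-05), and the polysomal groups did not overlap. Mybbp1a, a nucleolar protein that binds Myb, had 1.42 ± 0.21 (SE) (limma adjusted p = 0.00129).

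The remaining genes among the 14 largest were Glg1, a Golgi glycoprotein, with 1.35; Cad, the enzyme of the first steps of pyrimidine synthesis, with 1.27; Mthfd1, a folate enzyme, with 1.26; and Dlgap5, a spindle protein, with 1.22. Myh9, a heavy chain of nonmuscle myosin, had 1.19, Ckap5, a microtubule polymerase, 1.18, Dock8, another DOCK exchange factor, 1.18, and Lrpprc, which binds mitochondrial mRNAs, 1.17. All of them passed in each of the 12 fits that left out 1 array. H2bc8, a histone H2B gene, reached 1.55 ± 0.23 (SE) (limma adjusted p = 0.00129) in another way. For H2bc8 the untreated arrays read 8.73, 8.87 and 8.75 (log2) in cytoplasmic and 6.85, 6.57 and 7.24 in polysomal RNA, and the treated arrays 7.35, 7.72 and 7.95 and 7.11, 7.38 and 7.49. Its cytoplasmic level fell by 1.11 while its polysomal change of 0.44 did not pass. Histone H2B genes are near-identical copies, so signal of several copies can be mixed in this value. Histone genes were looked at after their values were seen. Of 25 tested, 2 were higher (H2bc8 and H1f2) and 0 lower, against 2.31% and 0.607% of all genes tested. The loading changes of the 25 histone genes ran from -0.61 to 1.55 with a median of -0.09, so the value of H2bc8 is not that of the family.

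**Figure D2:**
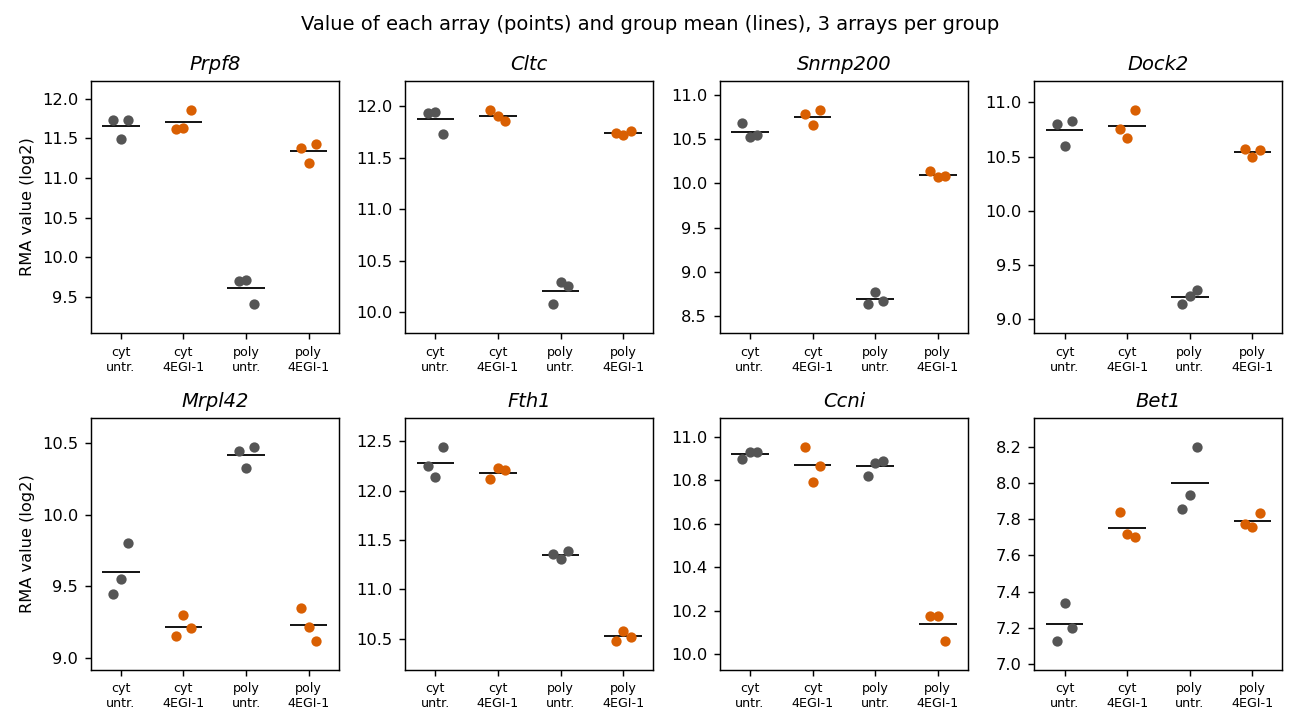
RMA value (log2) of each of the 12 arrays for 4 genes with a higher and 4 with a lower loading change, in the cytoplasmic (cyt) and polysomal (poly) groups, untreated in grey and 4EGI-1 in orange, with a line at each group mean. In the upper 4 panels only the untreated polysomal arrays stand low. In the lower 4 panels the treated polysomal arrays lie below the untreated polysomal ones, for Bet1 by a change of -0.21 that did not pass.

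Among the lower genes the largest loading change of those named was that of Mrpl42, a protein of the mitochondrial ribosome. The 3 cytoplasmic arrays of Mrpl42 read 9.45, 9.55 and 9.80 (log2) untreated and 9.15, 9.30 and 9.21 with 4EGI-1, and the polysomal arrays 10.45, 10.33 and 10.47 untreated and 9.35, 9.22 and 9.12 with 4EGI-1. The RNA was above its cytoplasmic level in polysomes of untreated cells and level with it after 4EGI-1. The loading change was -0.81 ± 0.14 (SE) (limma adjusted p = 0.0039). Fth1, the heavy chain of the iron store ferritin, whose mRNA carries an iron-responsive element that controls its translation, was low on polysomes already in untreated cells. For Fth1 the untreated arrays read 12.25, 12.14 and 12.45 (log2) in cytoplasmic and 11.36, 11.31 and 11.38 in polysomal RNA, and the treated arrays 12.12, 12.23 and 12.21 and 10.48, 10.57 and 10.52. Its loading change was -0.73 ± 0.12 (SE) (limma adjusted p = 0.00268), and its treated polysomal arrays were below all other arrays.

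Ccni, cyclin I, fell by 0.73 in polysomal RNA, and its cytoplasmic change of -0.05 did not pass. The 3 cytoplasmic arrays of Ccni read 10.89, 10.93 and 10.93 (log2) untreated and 10.95, 10.79 and 10.87 with 4EGI-1, and the polysomal arrays 10.82, 10.88 and 10.89 untreated and 10.18, 10.18 and 10.06 with 4EGI-1. The loading change was -0.68 ± 0.10 (SE) (limma adjusted p = 0.00164). Slirp, the partner protein of Lrpprc in binding mitochondrial mRNAs, had -0.70 ± 0.12 (SE) (limma adjusted p = 0.0057), opposite in sign to Lrpprc itself at 1.17. For Slirp the untreated arrays read 10.38, 10.47 and 10.39 (log2) in cytoplasmic and 10.72, 10.91 and 10.92 in polysomal RNA, and the treated arrays 10.36, 10.34 and 10.13 and 9.93, 10.12 and 10.00. The treated polysomal arrays of Slirp did not overlap the untreated ones.

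Bet1 is a SNARE of transport from the endoplasmic reticulum to the Golgi. Its loading change of -0.74 ± 0.13 (SE) (limma adjusted p = 0.00565) came more from the cytoplasmic than from the polysomal side. The 3 cytoplasmic arrays of Bet1 read 7.13, 7.34 and 7.20 (log2) untreated and 7.84, 7.72 and 7.70 with 4EGI-1, and the polysomal arrays 7.86, 7.94 and 8.20 untreated and 7.77, 7.76 and 7.83 with 4EGI-1. Its cytoplasmic RNA rose by 0.53, and its polysomal change of -0.21 did not pass. Slc10a1, a bile acid transporter of liver, and Lct, the intestinal lactase, rose in both fractions from values near the level of the dim filter, and more in cytoplasmic RNA (1.18 and 1.52) than in polysomal RNA (0.38 and 0.84). For Slc10a1 the call was lost without polysomal 4EGI-1 replicate 1 (limma adjusted p = 0.0503).

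The other lower genes of the ranking were Mrpl33 (-0.78), Ndufa5 (-0.74), Galnt1 (-0.72), Sclt1 (-0.71), Ska2 (-0.71), Ndufb2 (-0.70) and Arl3 (-0.69). Of these 7 only Ndufb2 kept the call in all 12 fits that left out 1 array. Mrpl33, Ndufa5, Ska2 and Arl3 each lost the call in 10 of these fits, and kept it only without cytoplasmic untreated replicate 2 or cytoplasmic 4EGI-1 replicate 3. Sclt1 lost it in 6 and Galnt1 in 4.

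Genes that moved in opposite directions in the fractions were 20 in all, 16 with a higher and 4 with a lower loading change. Kif2c, a kinesin that removes tubulin from microtubule ends, fell in cytoplasmic RNA and rose in polysomal RNA. For Kif2c the untreated arrays read 10.03, 9.94 and 10.06 (log2) in cytoplasmic and 9.17, 9.22 and 9.30 in polysomal RNA, and the treated arrays 9.25, 9.15 and 9.44 and 9.54, 9.50 and 9.59. Its loading change was 1.04 ± 0.12 (SE) (limma adjusted p = 0.000213). Dlgap5, Myo1e, Spag5 and Gemin5 did the same, with 1.22, 0.98, 0.94 and 0.94. Riok3, an atypical kinase, rose in cytoplasmic RNA by 0.29 and fell in polysomal RNA by 0.31, giving -0.60 ± 0.11 (SE) (limma adjusted p = 0.00778).

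Gene lists were compared with all genes tested by their counts and medians, with no test of the list. The lists were chosen with earlier results of these data known, so their counts are descriptions. Counts that passed are to be read against the 2.31% higher and 0.607% lower of all genes tested. Of 64 giant kinases, ubiquitin ligases and scaffolds tested, 20 were higher and 0 lower, with a median loading change of 0.33, and 36 were higher and 1 lower at an unadjusted p under 0.05, against 6.73% and 6.87% of all genes. Cad and Myh9 led it, with Atm, the DNA damage kinase, at 0.92 ± 0.12 (SE) and Med12, a subunit of Mediator, at 0.85 ± 0.13 (SE). The count fell to 11 without cytoplasmic 4EGI-1 replicate 1, polysomal 4EGI-1 replicate 1 or polysomal 4EGI-1 replicate 3, to 12 without cytoplasmic untreated replicate 1, and to 13 without cytoplasmic 4EGI-1 replicate 2 or any polysomal untreated array. Of 7 DOCK exchange factors 4 were higher (Dock2, Dock8, Dock10 at 0.58 and Dock11 at 0.49), with a median of 0.49. Dock11 lost its call in 7 of the 12 fits without 1 array.

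Nuclear pore proteins had 9 of 28 higher (32.1%, against 2.31% of all genes tested), 0 lower and a median of 0.24. Nup205, Nup188, Nup133 and Nup107, scaffold nucleoporins, had 1.04, 1.02, 0.97 and 0.72. Chromatin remodellers and co-regulators had 7 of 40 higher (17.5%), 0 lower and a median of 0.17. Among them were Smarca4, the ATPase of the SWI/SNF complex, at 1.06, Chd4, the ATPase of NuRD, at 0.90, Dnmt1, which maintains DNA methylation, at 0.80, and Smarcc2 at 0.73.

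Coat proteins had 7 of 29 higher (24.1%, against 2.31% of all genes tested), 0 lower and a median of 0.19. Beside Cltc these included Ap2b1, the beta subunit of the AP2 adaptor, at 1.10 ± 0.11 (SE), Copa of the COPI coat at 1.01 ± 0.12 (SE), and Copg2 at 0.51 ± 0.11 (SE), which lost its call in 3 of the 12 fits without 1 array. The count fell to 4 or 3 without cytoplasmic untreated replicate 1, cytoplasmic 4EGI-1 replicates 1 or 2, polysomal untreated replicates 1 or 2, or polysomal 4EGI-1 replicates 1 or 3.

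Of 64 genes of ribosome biogenesis and RNA polymerase I, 11 were higher and 0 lower, with a median of 0.10. The higher share was 17.2%, against 2.31% of all genes tested. Polr1a, the largest subunit of RNA polymerase I, had 1.04 ± 0.10 (SE), Heatr1 and Utp20, proteins of the small subunit processome, 1.03 and 1.03, and Nat10, an RNA acetyltransferase, 0.94. This count fell to 7 without polysomal untreated replicate 1 or polysomal 4EGI-1 replicates 1 or 3. Of 20 cytosolic aminoacyl-tRNA synthetases 4 were higher (20%): Lars at 1.07, Eprs at 0.95, Iars at 0.54 and Tars at 0.51. Iars lost its call in 3 and Tars in 7 of the 12 fits without 1 array. The list had a median of 0.06 and 0 lower members, and the count fell to 2 without cytoplasmic 4EGI-1 replicate 1, polysomal untreated replicate 2 or polysomal 4EGI-1 replicate 1.

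Core proteins of the spliceosome split in both directions. Of 59 tested, 11 were higher (18.6%) and 2 lower (3.39%), against 2.31% and 0.607% of all genes tested. The most significant higher ones were Prpf8, Snrnp200, Prpf6 at 0.97 and Aqr at 0.94. The 2 lower ones were Phf5a at -0.54 and Sf3b5 at -0.51. The median of the list was 0.02. The lower count went to 0 or 1 without any 1 array other than cytoplasmic untreated replicate 2 and cytoplasmic 4EGI-1 replicates 2 and 3. It was 2 without cytoplasmic 4EGI-1 replicate 2 and 6 without each of the other two.

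Of 73 respiratory chain subunits encoded in the nucleus 0 were higher and 4 lower (5.48%, against 0.607% of all genes tested), with a median of -0.20. The 4 were Ndufa5, Ndufb2 and Ndufs6 of complex I and Atp5k of the ATP synthase, at -0.74, -0.70, -0.55 and -0.66. At an unadjusted p under 0.05, 0 were higher and 23 lower, against 6.73% and 6.87% of all genes. Of 77 mitochondrial ribosomal proteins 0 were higher and 4 lower (5.19%), with a median of -0.18. The 4 were Mrpl42, Mrpl33, Mrps14 at -0.59 and Mrpl48 at -0.57. In this list 0 were higher and 19 lower at an unadjusted p under 0.05. Without 1 array the lower count was 2 to 7 for the respiratory chain, and 2 without any array other than cytoplasmic untreated replicates 2 and 3, cytoplasmic 4EGI-1 replicate 3 and polysomal untreated replicate 1. It was 1 to 5 for the mitochondrial ribosome, and 1 or 2 without any array other than cytoplasmic untreated replicates 2 and 3 and cytoplasmic 4EGI-1 replicate 3.

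**Figure D3:**
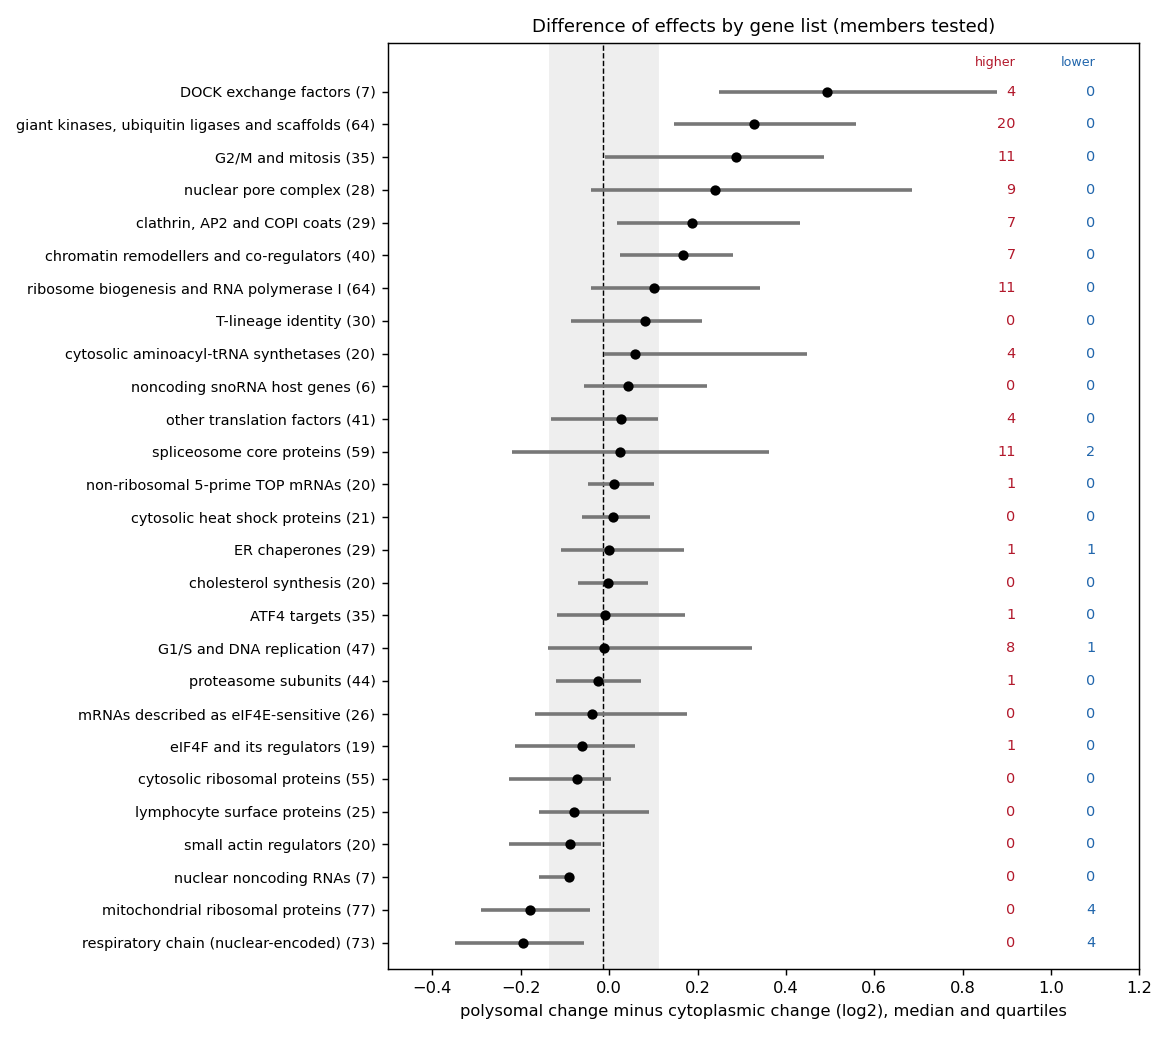
Median (points) and quartiles (lines) of the loading change (log2) for each gene list, with the number of members tested in brackets and the counts that passed the test higher (red) and lower (blue) at the right. The dashed line and grey band are the median and quartiles of all 13180 genes tested. The DOCK list has the highest median, 0.49, and the respiratory chain the lowest, -0.20.

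Cytosolic ribosomal proteins, which hold most of the TOP mRNAs, had 0 of 55 higher and 0 lower with limma and a median of -0.07. At an unadjusted p under 0.05, 1 was higher and 11 were lower, against 6.73% and 6.87% of all genes. Of 20 TOP mRNAs outside the ribosome 1 was higher, Eef2, the elongation factor of translocation, at 0.63 ± 0.13 (SE) (limma adjusted p = 0.0128), and 0 were lower. Of 41 other translation factors 4 were higher, Eif5b at 0.74, Eef2, Eif3c at 0.61 and Eif3a at 0.45, and 0 lower. Eif3a lost its call in 9 of the 12 fits without 1 array.

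Of 19 genes of the eIF4F complex and its regulators 1 was higher, Eif4g3, a paralogue of the scaffold eIF4G, at 0.62 ± 0.15 (SE) (limma adjusted p = 0.033), and 0 were lower. That call was kept only without cytoplasmic untreated replicates 2 or 3 or cytoplasmic 4EGI-1 replicate 3 when 1 array was left out. Eif4e itself had -0.24 ± 0.11 (SE) (limma adjusted p = 0.365).

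None of 26 mRNAs described as sensitive to eIF4E passed the limma test in either direction. Their median loading change was -0.04. At an unadjusted p under 0.05, 1 was higher and 5 were lower, against 6.73% and 6.87% of all genes. Myc had 0.34 ± 0.19 (SE) (limma adjusted p = 0.465) and Mcl1 -0.04 ± 0.19 (SE) (0.96). Odc1, which starts polyamine synthesis, had -0.37 ± 0.12 (SE) (limma adjusted p = 0.158), and Birc5, the apoptosis inhibitor survivin, -0.37 ± 0.15 (SE) (0.284). Odc1 fell by 0.33 and Birc5 by 0.62 in polysomal RNA, and their cytoplasmic changes of 0.04 and -0.25 did not pass. For Mcl1 neither the polysomal change of -0.20 nor the cytoplasmic change of -0.16 passed. Ccnd1, a D-type cyclin, fell by 1.18 in polysomal and by 1.36 in cytoplasmic RNA, and its loading change was 0.18 ± 0.16 (SE) (limma adjusted p = 0.721). Ccnd3 fell by 0.45 and by 0.60, with a loading change of 0.15 ± 0.17 (SE) (0.785). Ccnd2 fell by 0.78 and by 0.34, with -0.44 ± 0.14 (SE) (0.129). Bcl2 had -0.16 ± 0.13 (SE) (0.657), and Notch1, the receptor often mutated in T-ALL, 0.53 ± 0.20 (SE) (0.229). A p above the threshold does not show that these mRNAs moved equally in both fractions. With 1 array left out Notch1 passed at 0.73 (adjusted p = 0.0118) and Ccnd2 at -0.51 (0.0498), both without cytoplasmic 4EGI-1 replicate 3, and Birc5 at -0.49 (0.0433) without cytoplasmic untreated replicate 2.

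Targets of Atf4, the transcription factor of the integrated stress response, had median changes of 0.39 in polysomal and 0.33 in cytoplasmic RNA, and a median loading change of -0.01. Of 35 tested, 1 was higher (2.86%, near the 2.31% of all genes tested) and 0 were lower. The higher gene was the arginine transporter Slc7a3, at 0.57 ± 0.12 (SE) (limma adjusted p = 0.0167). That call was lost without polysomal untreated replicate 2 or polysomal 4EGI-1 replicates 1 or 3, and the count rose to 2 without cytoplasmic 4EGI-1 replicate 3. Ddit3, a stress factor induced by Atf4, rose by 0.86 in polysomal and 0.87 in cytoplasmic RNA. Atf4 itself, whose mRNA has upstream reading frames, had 0.20 ± 0.11 (SE) (limma adjusted p = 0.497).

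Genes of G2/M and mitosis had medians of -0.38 in cytoplasmic and -0.22 in polysomal RNA. Of 35 tested, 11 had a higher loading change (31.4%, against 2.31% of all genes tested) and 0 a lower one, with a median of 0.29. Kif2c led them, with Top2a, which untangles DNA, at 0.90 ± 0.11 (SE). Kif23, a kinesin of cell division, had 0.74 ± 0.11 (SE) and Cenpe, a kinesin of the kinetochore, 0.69 ± 0.12 (SE). For Kif23 the cytoplasmic RNA fell by 0.79 and the polysomal change of -0.06 did not pass. The count fell to 6 or 7 without cytoplasmic untreated replicate 1, cytoplasmic 4EGI-1 replicates 1 or 2, polysomal untreated replicates 2 or 3, or polysomal 4EGI-1 replicates 1 or 3. Of 47 genes of G1/S and DNA replication 8 were higher (17.0%). They included Rrm1, a ribonucleotide reductase subunit, at 0.99, Pole, a replicative polymerase, at 1.13, Lig1 at 0.85 and Mcm4 at 0.67. The 1 lower gene was Orc2 at -0.41, which passed only without cytoplasmic untreated replicate 2 or cytoplasmic 4EGI-1 replicate 3 when an array was left out.

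Other lists had few or no members past the test. The proteasome had 1 of 44 higher (Psmd1, 0.52), or 2.27% against 2.31% of all genes tested, and 0 lower. Chaperones of the endoplasmic reticulum had 1 of 29 higher (Hyou1, 0.61) and 1 lower (Derl2, -0.65), each 3.45%, against 2.31% and 0.607% of all genes tested. A count of 1 gene is not read as a result about its list. Tfrc, the transferrin receptor, was the 1 of 4 measured erythroid genes that was higher, at 0.48; it is also made by dividing cells of other kinds. Derl2 lost its call in 7 and Tfrc in 6 of the 12 fits without 1 array. No member passed the limma test among 20 small actin regulators (0 higher and 4 lower at an unadjusted p under 0.05, against 6.73% and 6.87% of all genes), 25 lymphocyte surface proteins (3 and 0), 20 genes of cholesterol synthesis (1 and 1), 21 cytosolic heat shock proteins (2 and 0), 6 noncoding snoRNA hosts (0 and 0) and 7 nuclear noncoding RNAs (0 and 1).

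Subunits of single complexes were looked at after their values were seen, so the counts here are descriptions. Of all genes tested 2.31% were higher and 0.607% lower. Of 27 tested subunits of RNA polymerases I, II and III, 6 had a higher loading change and 0 a lower one, and these 6 were the largest and the second largest subunit of each enzyme. Polr1a had 1.04 ± 0.10 (SE), Polr2a 0.92 ± 0.15 (SE), Polr3a 0.75 ± 0.11 (SE), Polr2b 0.74 ± 0.11 (SE), Polr1b 0.68 ± 0.14 (SE) and Polr3b 0.55 ± 0.11 (SE). Among the other 21 the values ran from -0.45 for Polr2h to 0.07 for Polr3e, and none passed the limma test. Polr1b lost its call in 6 and Polr3b in 3 of the 12 fits that left out 1 array.

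The SF3b complex of the spliceosome, which recognises the branch point, split in both directions. Its large subunits Sf3b3 and Sf3b1 had 0.83 ± 0.12 (SE) and 0.70 ± 0.10 (SE), its small subunits Phf5a and Sf3b5 had -0.54 ± 0.11 (SE) and -0.51 ± 0.13 (SE), and Sf3b2, Sf3b4 and Sf3b6 lay between them at 0.31, 0.20 and -0.18 and did not pass. Sf3b5 lost its call in 10 and Phf5a in 5 of the 12 fits without 1 array.

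**Figure D4:**
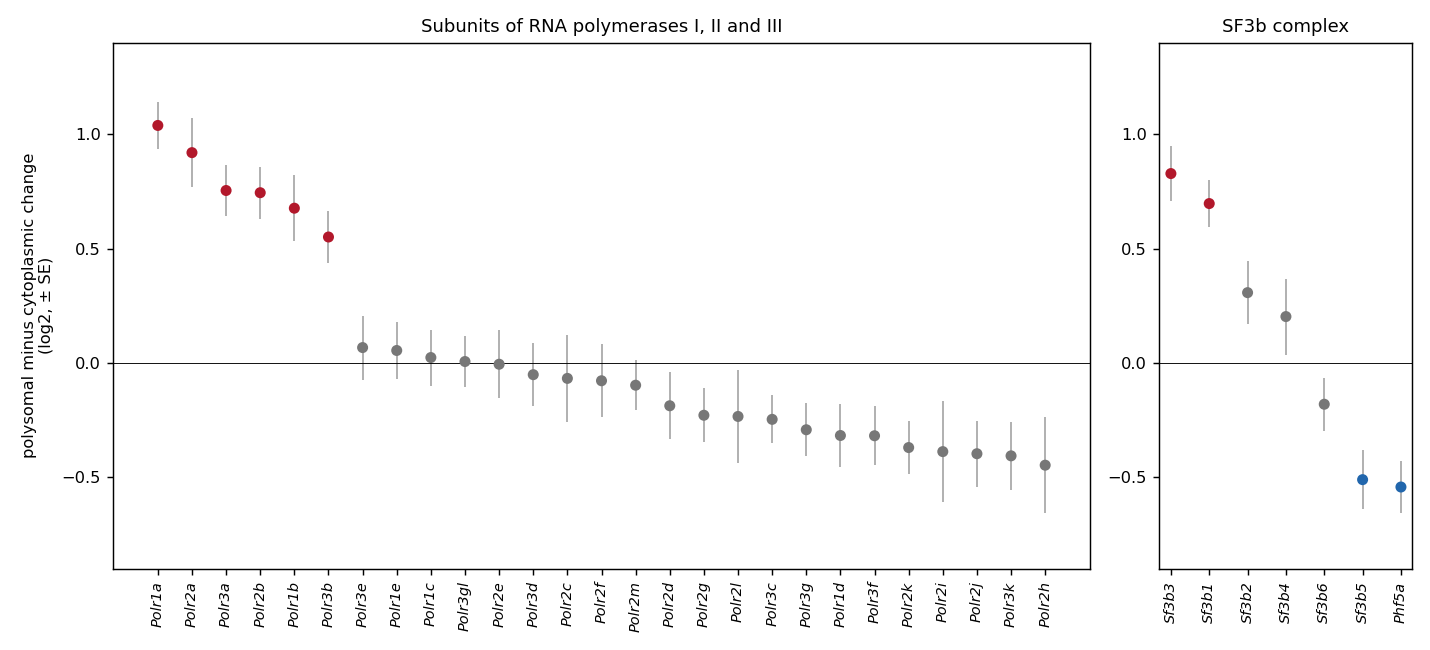
Loading change (log2, points) with its SE (lines) for subunits of RNA polymerases I, II and III (left) and of SF3b (right), ordered by value; red points passed higher, blue points lower, grey points did not pass. The 6 red polymerase points run from 0.55 to 1.04, and the other 21 lie at or below 0.07.

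Genes were also counted by size, a description chosen after the values were seen. Protein lengths were not used here, and the genomic span of a gene, introns included, was taken from RefSeq. The 304 protein-coding genes with a higher loading change had a median span of 54.0 kb, the 77 with a lower one 15.4 kb, and all 12526 protein-coding genes tested 21.1 kb. In 5 classes of equal size by span, from short to long, 6, 18, 49, 96 and 135 genes were higher, or 0.239%, 0.719%, 1.96%, 3.83% and 5.39%, and 19, 19, 15, 12 and 12 were lower. The median loading change of the classes moved only from -0.04 to 0.02. The signal also differed between them, with a median level of 7.13 in the shortest and 8.41 in the longest class, and its part in these counts was not tested.

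**Figure D5:**
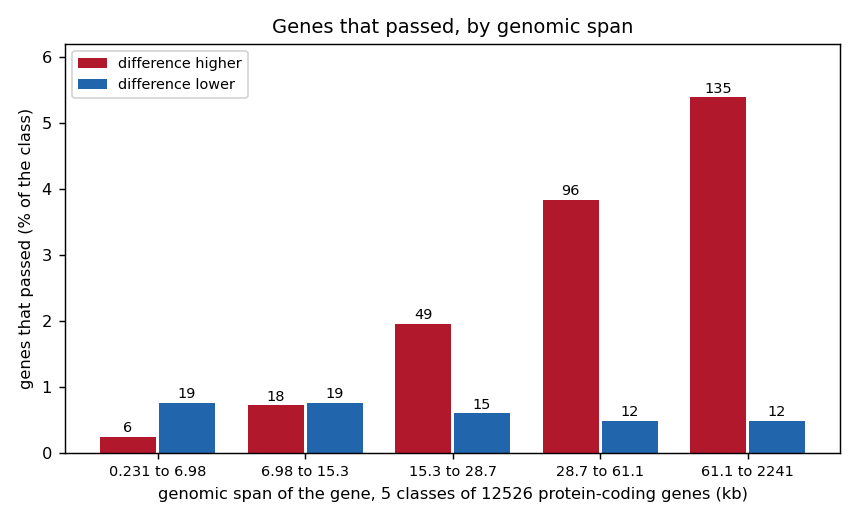
Percentage of protein-coding genes that passed with a higher (red) or lower (blue) loading change in 5 classes of genomic span (kb, horizontal axis), with the number of genes above each bar. The higher share goes from 0.239% in the shortest to 5.39% in the longest class, and the lower share from 0.758% to 0.479%.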

How the data were processed

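Gene expression was measured on 12 single-colour whole-transcript arrays, and the deposited table holds 1 log2 value per probe set and array. Per the submitters' processing notes the authors' values come from RMA (robust multi-array average: background correction, quantile normalisation and a summary of probes); its version and settings are not stated in the material used. RMA makes the arrays alike in distribution, so only relative changes can be read. Of 34760 probe sets 21640 name 1 gene, 1321 several and 11799 none; only the first kind was used. Each gene took its brightest probe set, and 6757 of 19937 genes below the 40th percentile of mean signal were left out.

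The 4 groups were fitted with limma 3.58.1 (R 4.3.3) as group means, with the loading change as a contrast of contrasts, eBayes without trend, and Benjamini-Hochberg adjustment over 13180 genes at 0.05. The fit uses 1 spread per gene for both fractions, although cytoplasmic arrays varied more; fits that allow for this are in the closing section. The script was tested on simulated data; where the fractions were given unequal spreads, the fit made more false calls than its threshold allows, so its adjusted p-values may be too small. With 3 replicates of 1 clone per group, p-values measure the spread between those replicates, and 3 arrays per group limit the precision. Named genes are the 14 largest changes in each direction that passed and whose polysomal minus cytoplasmic values did not overlap between treatments, leaving out placeholder symbols, small RNAs and pseudogenes; up to 4 most significant per list; up to 5 per direction of opposite sign in the fractions; and 12 genes of interest. The condition of no overlap was met by all 385 genes that passed, so it removed none, and by 2505 of the genes tested (19.01%). The members, lists and rules were chosen with earlier results of these data known. A planned description by protein length was not run, since no protein table was used here. The figures were drawn with matplotlib 3.10.9.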

Additional observations from a re-analysis of the deposited data

Results flagged for a closer look

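The effect of 4EGI-1 differed between polysomal and cytoplasmic RNA, by a test of the difference itself in limma, for the 305 higher and 80 lower genes of the report. The named genes that also passed in each fraction with opposite signs were Dlgap5 with a loading change of 1.22, Kif2c with 1.04, Myo1e with 0.98, Spag5 with 0.94 and Gemin5 with 0.94 on the higher side, and Galnt1 with -0.72, Riok3 with -0.60, Vps4a with -0.54 and Lrrfip2 with -0.48 on the lower side. The 5 higher genes and Riok3 kept the call without any 1 of the 12 arrays, while Vps4a lost it in 2, Galnt1 in 4 and Lrrfip2 in 8 of these fits.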

How the results depend on the processing

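No gene that passed changed sign under any alternative in which it was tested. The count of genes higher, 305, stayed within 1.5 times under the other normalisations, filters, variance priors, array weights and blocks (214 to 352), and fell to 82 when limma's treat tested against a log2 change of 0.26. The count of genes lower, 80, was 45 after centring on array medians, 28 with no filter on dim probe sets, 125 with a random block of treatment and number, and 0 under treat, where 129 had an unadjusted p under 0.05. Leaving out 1 array gave 179 to 411 higher and 19 to 259 lower genes; each such fit has fewer arrays. Of the called genes named by rule, 51 of 59 higher and 9 of 22 lower kept the call in all 12 of these fits. Under treat, 19 of the 59 and 22 of the 22 lost the call. Under another setting, 5 of the 59 (Eif3a, Tfrc, Dock11, Tars and Eif4g3) and 9 of the 22 (Mrpl33, Ndufa5, Ska2, Arl3, Derl2, Mrps14, Mrpl48, Ndufs6 and Lrrfip2) lost it, all 14 of them with no filter on dim probe sets. Quantile normalisation over all arrays lost 7 of the 22 (all but Derl2 and Lrrfip2 of these 9).

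The spread differs between the fractions. Array weights per fraction gave 303 higher and 86 lower genes, of which 291 and 67 were among the 305 and 80. A replicate block within treatment, on 6 polysomal minus cytoplasmic differences, gave 278 and 79, of which 256 and 56 were among them. Of the genes named by rule and the DNA repair and condensin genes, Eif3a, Blm, Tfrc, Dock11, Ncapg and Eif4g3 did not pass in that block. A replicate block with the number as a fixed term gave 352 and 120. Same-numbered arrays deviated together in 9 of 18 pairs (correlation over 0.1, range -0.216 to 0.562). Arrays of different number ranged from -0.700 to 0.412. Same-numbered cytoplasmic and polysomal arrays of 1 treatment correlated at 0.0187 to 0.228, and those of different number at -0.209 to 0.143. The design text takes both preparations from the same cells, but the labels do not say that equal numbers mark them, so the pairing is not settled. The description by protein length and its alternatives were not run.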

Other observations

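These further gene families were also chosen after their values were seen, and their counts are descriptions. They stand beside 2.31% higher and 0.607% lower of all genes tested. Of 24 DNA repair genes 8 were higher, among them Rad50 at 0.76, Fancd2 at 0.85 and Msh6 at 0.67. In the Integrator complex 3 of 15 were higher (Ints4, Ints12 and Ints1), and in condensin and cohesin 3 of 16 (Ncapd3, Ncaph and Ncapg, the last of which lost its call in 11 fits). Of 18 small integral membrane proteins 2 were lower, Smim7 at -0.67 and Smim26 at -0.58. Ftl1, the light chain of ferritin, had -0.33 ± 0.20 (SE) (limma adjusted p = 0.526) beside the lower Fth1.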
